A study of Mus musculus with 12 samples.

Results

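The comparison described here sets the K arm against the BHB arm of a study on maternal ketosis and the fetal mouse kidney, over all genes. It uses 8 of the 12 sequencing libraries of the study, K 1 to 4 and BHB 1 to 4, and was defined by the arm named in the title and in the count column of each library. The other 4 libraries, normal 1 to 4, entered the statistical model as another arm, and their levels are set beside those of the treated arms. Every library is 1 litter at E17.5, late in gestation, so litters are the replicates (n = 4 per arm).

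All 3 arms share 1 genotype. The embryos were heterozygous, given in the labels as CD-1 WT/Six2 Cre+/tg, and came from Tg(Six2-EGFP/cre)Amc males and wild-type CD1 females, both 8 to 10 weeks of age. CD1 is an outbred strain, and the transgene puts a fusion of GFP and Cre under Six2 control, so the control litters carry it too. GFP-positive cells were sorted from the kidneys of a whole litter after enzymatic digestion, pooled, and RNA of 50000 to 100000 cells was made into a stranded total RNA library read over 100 cycles. From conception the mothers had received a normal diet, a normal diet with added β-hydroxybutyrate, or a ketogenic diet. Titles and treatment fields contradict each other in all 8 treated libraries. The K libraries, ketogenic by title, are listed with added β-hydroxybutyrate as the treatment, and the BHB libraries with the ketogenic diet. K and BHB are therefore names of library sets, and a difference between them has no known sign in terms of diets.

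Six2 marks the cap mesenchyme, a self-renewing pool that caps the tips of the ureteric tree and gives rise to the epithelium of every nephron. This transcription factor keeps the cells uncommitted, and Wnt signals from the ureteric tip start their conversion to epithelium. In ketosis the maternal liver turns fatty acids into acetoacetate and β-hydroxybutyrate, which reach other tissues through monocarboxylate transporters and are split back to acetyl-CoA in mitochondria. A ketogenic diet supplies mostly fat and little carbohydrate, whereas supplementation adds the ketone body to an ordinary diet. Fatty acids activate PPAR transcription factors, insulin and sterol shortage activate the SREBP factors of lipid synthesis, and β-hydroxybutyrate itself is known as an inhibitor of some histone deacetylases.

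No gene differed between K and BHB past the threshold, a Benjamini-Hochberg adjusted p of 0.05 in edgeR's quasi-likelihood test. Of 17697 genes tested, 0% were called and the smallest adjusted p was 0.403. At an unadjusted p under 0.05 there were 658 genes with K higher (3.72%) and 798 with BHB higher (4.51%). With other scaling factors these 2 numbers were 409 and 918 (upper quartile) and 302 and 1353 (library totals). All 4 K litters lay above all 4 BHB litters for 311 genes (1.76%), and all 4 BHB litters lay above all 4 K litters for 408 (2.31%). DESeq2, run as an alternative, called 20 genes with K higher (0.298%) and 3 with BHB higher (0.0447%) of the 6717 genes for which it gave an adjusted p. The single-gene values below are therefore measurements with their errors, and a gene that missed the threshold is not thereby shown to be alike in both arms. Differences are log2 values, K minus BHB, ± SE, and levels are in CPM, the read count of a gene relative to the library total after scaling by TMM factors.

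The intervals state what sizes of difference the litters leave room for. The median half-width of the 95% interval was 0.39 on the log2 scale, and the interval lay wholly between -1 and 1 for 13417 genes (75.8%) and between -0.5 and 0.5 for 45.3%. A wide interval was that of Slc12a1, which takes up salt in the loop of Henle (0.63 ± 0.86, interval -1.27 to 2.53). Litters of the same arm differed widely for it. Six2 itself was at 381, 441, 228 and 246 CPM in K 1 to 4 and 258, 273, 449 and 319 CPM in BHB 1 to 4, and 379 to 510.1 CPM in normal litters. Its levels overlapped between the treated arms, with a difference of -0.0027 ± 0.23 and an interval of -0.50 to 0.50.

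Libraries differed within each arm as well as between arms. The first principal component of the 8 libraries took 51.3% of the variance and set K 3 (score 59.6), K 4 (47.7), BHB 1 (37.4) and BHB 2 (4.90) apart from K 1, K 2, BHB 3 and BHB 4 (-45.7 to -26.0). A marker score of other cell types, the mean log2 CPM over lists of proximal tubule, distal tubule, podocyte, ureteric, endothelial and leukocyte genes, was 4.23 to 5.12 in those first 4 libraries, 3.17 to 3.59 in the other treated ones and 2.28 to 3.26 in normal ones. Total counts were 9651130 to 10728338 in K and 7532784 to 12276119 in BHB, and 8292620 to 11404335 in normal litters. The share of mitochondrial transcripts was 1.30% ± 0.145 in K and 1.05% ± 0.134 in BHB (SD, n = 4; two-sided exact permutation p = 0.0571), and that of the 100 most abundant genes 16.5% ± 0.262 and 15.7% ± 0.373 (exact p = 0.0286, the smallest that 4 against 4 can give). Adjusted over the 5 library measures tested, both p-values became 0.143, and the total count and the shares of Malat1 and of haemoglobin had exact permutation p-values from 0.2 to 0.857. Results that rest on the 4 libraries with the high score are given also without them; the arms then hold 2 litters each.

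Small differences went with the base composition of the genes. Over 13821 protein-coding genes the log2 difference and the GC content of the transcripts had a Spearman correlation of -0.213, given as a description, since genes are not independent replicates and share the same 8 libraries. Genes were split into 5 equal bins by GC content. In the lowest bin 320 had K higher and 28 BHB higher at an unadjusted p under 0.05, and in the highest the counts were 22 and 167. The deviations of single libraries had Spearman correlations with GC of -0.241 and -0.212 in K 1 and K 2, against 0.039 to 0.177 in K 3, K 4 and the 4 BHB libraries. Normal litters spanned -0.204 to 0.022, so the value of normal 3 was close to that of K 2. With the gradient of each library fitted and removed, the counts were 116 and 75 in the lowest bin and 65 and 79 in the highest. Again no gene was called. The median difference over all genes was 0.01 with TMM factors, -0.02 with upper-quartile scaling and -0.05 with library totals.

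**Figure D1:**
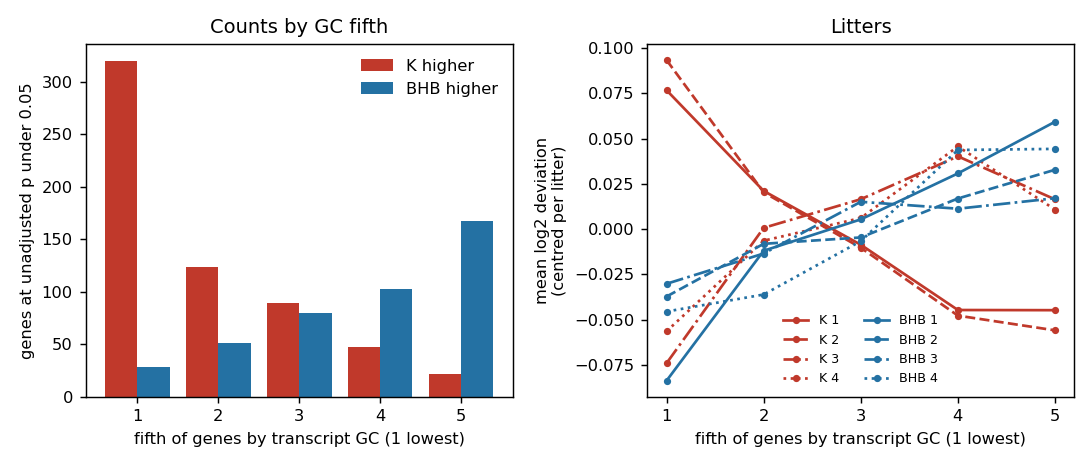
Left, number of protein-coding genes at an unadjusted p under 0.05 (edgeR) in 5 equal bins of GC content of the transcripts, with K higher in red and BHB higher in blue; the counts go from 320 and 28 in the lowest bin to 22 and 167 in the highest. Right, mean log2 deviation of each K (red) and BHB (blue) litter from the mean of all litters in the same bins, centred per litter; K 1 and K 2 slope downwards while the other 6 lines lie lowest in bin 1.

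Processed pseudogenes, the intronless copies of mRNAs that share most of their sequence with a parent gene, lay mostly on the BHB side. Of 1262 tested, 1068 had BHB higher and 194 K higher, with a median of -0.38 against 0.01 over all genes. At an unadjusted p under 0.05 there were 236 with BHB higher (18.7%) and 6 with K higher (0.475%), against 4.51% and 3.72% of all genes. Their share of a library was 0.508% to 0.645% in K, 0.603% to 0.775% in BHB and 0.609% to 0.701% in normal litters, so the ranges of all 3 arms overlapped. How reads were split between these copies and their parent genes was not stated, so single pseudogene values are uncertain. Among protein-coding genes alone the median was 0.03.

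Every member of the lipid synthesis lists at an unadjusted p under 0.05 had its lower level in K. All 4 K litters were below all 4 BHB litters for Scd1, Scd2, Fads2 and Srebf1. Of 15 fatty acid synthesis genes tested of 16 listed, 9 had BHB higher and 6 K higher (median -0.11). In all, 5 were at an unadjusted p under 0.05, all with BHB higher. Of 24 genes of cholesterol synthesis and uptake, all tested, 19 had BHB higher and 5 K higher (median -0.19), and 6 were at an unadjusted p under 0.05, all with BHB higher. The share of all genes with BHB higher at that p was 4.51%, and none of these members passed the adjusted threshold. Both medians kept their sign in all 26 alternatives, from -0.19 to -0.06 and from -0.36 to -0.14, and lay at -0.09 and -0.17 with the GC gradient removed.

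Scd1 encodes stearoyl-CoA desaturase, which puts the double bond into newly made saturated fatty acids. It was at 4.53, 3.07, 5.58 and 8.56 CPM in K 1 to 4 and 18.1, 14.6, 11.2 and 11.1 CPM in BHB 1 to 4, and 9.42 to 12.2 CPM in normal litters. The K litters were all below the lowest BHB litter and below the lowest normal litter, while BHB and normal overlapped. The difference was -1.34 ± 0.27 (interval -1.93 to -0.75; edgeR quasi-likelihood adjusted p = 0.530). It was -1.54 without the 4 libraries of high marker score (edgeR adjusted p = 0.0169) and -1.47 with the marker score as a covariate, where Scd1 was the only gene called (adjusted p = 0.00174); over the alternatives that gave one the adjusted p ran from 0.00174 to 0.996. Scd2, the isoform known for high levels in mouse brain, was at 563, 642, 557 and 535 CPM in K 1 to 4 and 718, 654, 786 and 769 CPM in BHB 1 to 4, again with no overlap. Its difference was smaller (-0.35 ± 0.09, edgeR adjusted p = 0.530). Normal litters were at 714 to 890.3 CPM, on the side of BHB.

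Fads2, the desaturase of polyunsaturated fatty acids, was at 51.5, 52.99, 40.02 and 44.9 CPM in K 1 to 4 and 53.9, 57.5, 62.9 and 70.03 CPM in BHB 1 to 4 (-0.37 ± 0.11). Srebf1, the transcription factor that drives fatty acid synthesis genes, was at 61.4, 56.3, 71.6 and 79.5 CPM in K 1 to 4 and 89.6, 85.6, 82.3 and 91.00 CPM in BHB 1 to 4 (-0.37 ± 0.13). For both, the highest K litter was just below the lowest BHB litter. Fasn, the fatty acid synthase, was at 423, 464, 336 and 361 CPM in K 1 to 4 and 422, 428, 531 and 486 CPM in BHB 1 to 4 (-0.24 ± 0.11), and Acaca, the carboxylase that makes malonyl-CoA for it, differed by -0.21 ± 0.09. Their arms overlapped, with the lowest levels in K 3 and K 4. Acacb, the carboxylase of the mitochondrial surface, whose product restrains fatty acid oxidation, went the other way with 17.4, 13.99, 53.1 and 55.3 CPM in K and 27.8, 28.3, 11.6 and 10.4 CPM in BHB, high in the 4 libraries of high marker score. Elovl5, Elovl6 and Elovl1, which lengthen fatty acids, had differences of -0.01 ± 0.08, 0.03 ± 0.08 and 0.05 ± 0.33.

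In the sterol branch most members lay on the BHB side too. Fdft1, squalene synthase, was at 34.4, 28.6, 33.6 and 33.4 CPM in K 1 to 4 and 40.6, 34.9, 38.5 and 42.3 CPM in BHB 1 to 4 (-0.27 ± 0.09). Lss, which closes the sterol ring, differed by -0.20 ± 0.08. Neither overlapped between the arms. Srebf2, the transcription factor of this branch, differed by -0.17 ± 0.07, Tm7sf2, a sterol reductase, by -0.40 ± 0.14, and Mvk, mevalonate kinase, by -0.31 ± 0.13. Hmgcs1, which makes the precursor of mevalonate, was on the K side at 0.31 ± 0.25, with 130.03, 105, 239 and 230.4 CPM in K 1 to 4 and 158, 137, 128 and 145 CPM in BHB 1 to 4; K 3 and K 4 were the highest litters. No adjusted p of a sterol gene was under 0.535 in edgeR's test.

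Promoters of both branches were searched for the sterol regulatory element, the site bound by SREBP factors, since every member at an unadjusted p under 0.05 had BHB higher, although 6 of 15 fatty acid synthesis genes and 5 of 24 sterol genes had K higher. The letters searched were TCACNCCAC on both strands, in windows from 250 bases before to 50 after each start in the RefSeq table of build GRCm38.p6, which holds 12 of the 15 fatty acid synthesis genes tested and 16 of the 24 sterol genes; Scd1 is not among them. The letters were found for 1 gene of each list, Mlxipl (a glucose-sensing factor of lipid synthesis) and Hmgcs1. That was 1 of 17 fatty acid synthesis windows (5.88%) and 1 of 19 sterol windows (5.26%), against 1.24% of all 32851 windows. Both windows lie on the plus strand, Mlxipl at chr5:135106641-135106940 and Hmgcs1 at chr13:119690101-119690400, and the match, in capitals, begins 136 and 137 bases before the start. A match is a description of the letters and not evidence of binding, and the window of a gene without them says nothing about the factor.
Mlxipl: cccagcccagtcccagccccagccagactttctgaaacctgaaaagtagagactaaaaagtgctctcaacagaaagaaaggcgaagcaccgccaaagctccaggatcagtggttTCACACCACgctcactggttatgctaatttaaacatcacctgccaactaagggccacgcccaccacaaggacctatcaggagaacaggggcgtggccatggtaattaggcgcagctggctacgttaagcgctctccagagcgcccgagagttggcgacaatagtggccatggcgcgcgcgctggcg
Hmgcs1: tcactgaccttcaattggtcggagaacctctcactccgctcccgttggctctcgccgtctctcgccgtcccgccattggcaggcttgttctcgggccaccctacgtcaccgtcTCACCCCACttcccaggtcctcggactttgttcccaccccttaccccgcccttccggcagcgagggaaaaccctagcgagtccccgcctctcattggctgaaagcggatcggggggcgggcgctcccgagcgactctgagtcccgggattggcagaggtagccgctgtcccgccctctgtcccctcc

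Neither gene with the letters was on the BHB side. Mlxipl was at 13.7, 8.62, 23.3 and 31.4 CPM in K 1 to 4 and 17.2, 14.6, 13.3 and 20.1 CPM in BHB 1 to 4 (0.24 ± 0.33, interval -0.48 to 0.97), with overlapping arms, and Hmgcs1 has been given above.

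Genes encoded by the mitochondrial genome lay higher in K. All 13 protein-coding mitochondrial genes had a difference above 0 (median 0.46), 7 were at an unadjusted p under 0.05 and for 6 the litters did not overlap, against 3.72% and 1.76% of all genes with K higher. None passed edgeR's adjusted threshold. These genes encode subunits of the respiratory chain and are transcribed as long joint transcripts, so their values are not independent of each other. The median kept its sign in all 26 alternatives, from 0.32 without the 4 libraries of high marker score to 0.49. The transcripts have a low GC content (median 37.1% against 49.8% over all genes), and with the GC gradient removed the median was 0.38.

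mt-Nd2, a subunit of complex I, was at 985, 1005, 1076 and 997 CPM in K 1 to 4 and 718, 748, 639 and 692 CPM in BHB 1 to 4, and 583 to 832 CPM in normal litters. All K litters were above every BHB and every normal litter. The difference was 0.54 ± 0.11 (interval 0.30 to 0.78; edgeR adjusted p = 0.530). mt-Nd6, the complex I subunit encoded on the opposite strand, was at 315, 358, 415 and 377 CPM in K 1 to 4 and 267, 231, 182 and 222 CPM in BHB 1 to 4 (0.70 ± 0.15). mt-Atp8, a subunit of ATP synthase, was at 242, 242, 232 and 209 CPM in K 1 to 4 and 113, 117, 89.1 and 139 CPM in BHB 1 to 4 (1.01 ± 0.19). Neither pair of arms overlapped. DESeq2 called these 3 genes, with adjusted p-values of 0.00453, 0.00942 and 0.000889, and edgeR did not (0.530 for each). With the GC gradient removed their differences were 0.45, 0.61 and 0.90.

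mt-Co1, the catalytic subunit of cytochrome oxidase, was at 3167, 3081, 4002 and 4256 CPM in K 1 to 4 and 2893, 2623, 2184 and 2852 CPM in BHB 1 to 4 (0.46 ± 0.16). mt-Cytb of complex III differed by 0.34 ± 0.17 and mt-Nd4 by 0.32 ± 0.15, and for these 3 genes the arms did not overlap. Normal litters spanned both arms for mt-Cytb (1770.4 to 3041 CPM) and reached above K for mt-Nd4 (544 to 920.3 CPM). mt-Nd1 (0.36 ± 0.15) and mt-Nd5 (0.15 ± 0.18) overlapped, with K 3 and K 4 the highest litters of both. Parts of the mitochondrial genome have near-identical copies in nuclear chromosomes, mt-Atp8 overlaps mt-Atp6 and mt-Nd6 lies opposite mt-Nd5, so the values of mt-Atp8, mt-Atp6, mt-Co2, mt-Co3, mt-Nd3, mt-Nd4l and mt-Nd6 depend on how shared reads and strand were handled, which the sources do not state. Among these, mt-Co2 had 9.06, 4.504, 22.9 and 6.16 CPM in K and 5.69, 5.26, 4.07 and 4.19 CPM in BHB, with K 3 alone far above the others, and mt-Atp6 did not separate the arms at all (0.00 ± 0.17).

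**Figure D2:**
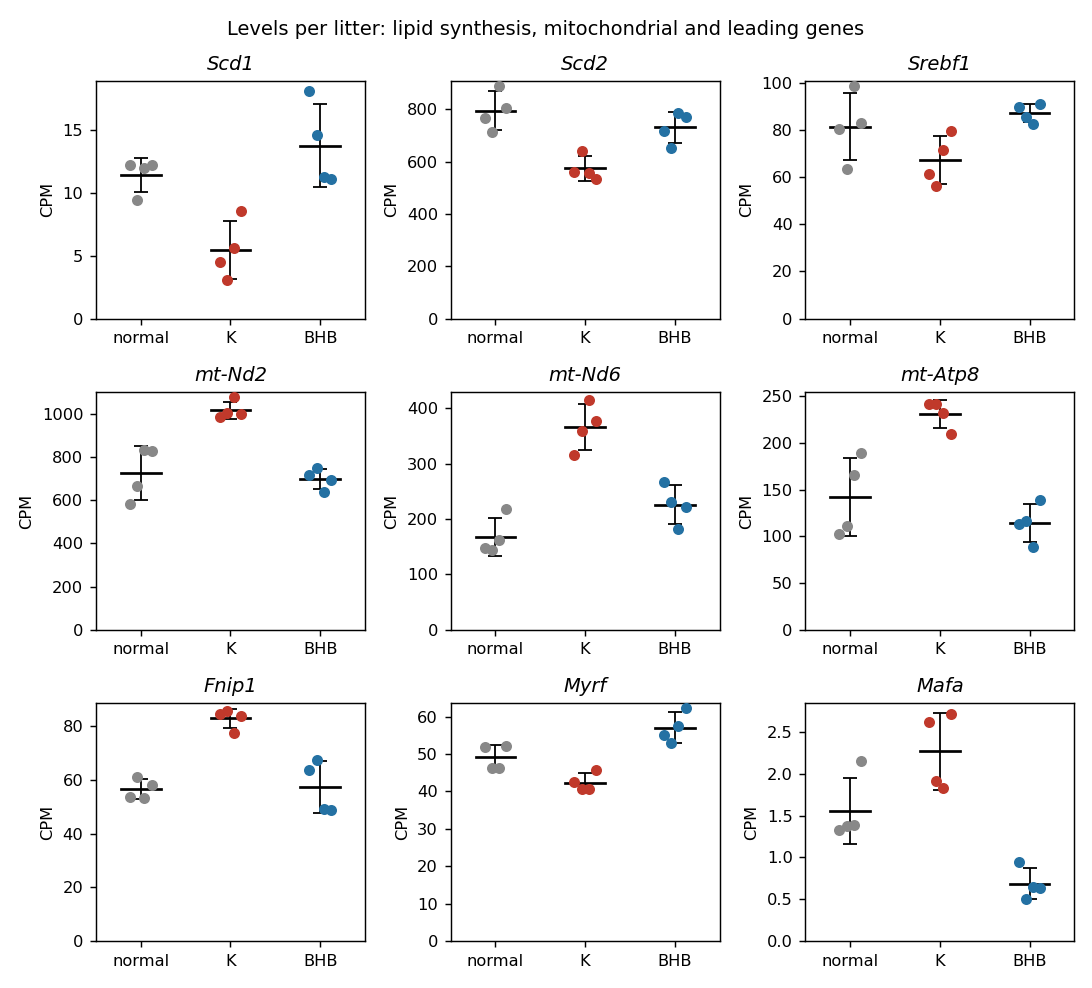
Level in CPM (linear axis from 0) of 9 genes in each normal (grey), K (red) and BHB (blue) litter; the bar is the mean and the whiskers 1 SD over 4 litters. Scd1, Scd2, Srebf1 and Myrf lie lower in all K than in all BHB litters, and mt-Nd2, mt-Nd6, mt-Atp8, Fnip1 and Mafa higher; the genes were chosen for their p-values or as members of the lipid and mitochondrial lists, and none passed edgeR's adjusted threshold.

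Enzymes and carriers of ketone bodies, the metabolites that name the study, did not separate the arms. Of 14 tested of 16 listed, 11 had K higher and 3 BHB higher (median 0.24), 2 were at an unadjusted p under 0.05 and none was free of overlap, against 3.72% and 1.76% of all genes with K higher. Bdh1, which interconverts acetoacetate and β-hydroxybutyrate, was at 15.5, 11.6, 69.4 and 64.5 CPM in K 1 to 4 and 61.02, 47.1, 20.3 and 14.5 CPM in BHB 1 to 4 (0.17 ± 0.61), with the high values in the 4 libraries of high marker score. Oxct1, the transferase that commits ketone bodies to use as fuel, was at 179.99, 158, 353 and 285 CPM in K 1 to 4 and 232, 243, 187 and 181 CPM in BHB 1 to 4 (0.21 ± 0.22, interval -0.28 to 0.70).

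Acat1, the thiolase that ends ketone body breakdown, was at 85.4, 77.6, 192 and 149.97 CPM in K 1 to 4 and 96.6, 89.3, 80.7 and 73.3 CPM in BHB 1 to 4 (0.57 ± 0.25, unadjusted p = 0.0452; edgeR adjusted p = 0.598). Slc16a6, a monocarboxylate transporter known for ketone body export in zebrafish liver, was at 11.2, 16.5, 16.95 and 17.01 CPM in K 1 to 4 and 8.02, 12.3, 10.4 and 13.6 CPM in BHB 1 to 4, where K 1 fell within the BHB range and the other K litters were above it (0.48 ± 0.18). Slc16a1, the main monocarboxylate importer of many cells, differed by 0.27 ± 0.14 (interval -0.04 to 0.57). In both arms it was higher in the litters of low marker score. Aacs, which turns acetoacetate to lipid synthesis, lay on the BHB side (-0.27 ± 0.14). Acss1, a mitochondrial acetate-activating enzyme, had 21.96, 13.7, 101 and 89.9 CPM in K and 34.04, 36.4, 19.3 and 11.2 CPM in BHB. The receptor Hcar2, through which β-hydroxybutyrate acts on immune and fat cells, had 41 counts in all 12 libraries together and was not tested; its highest level was 2.41 CPM in BHB 4. Without the 4 libraries of high marker score the median of the list was 0.15.

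Fatty acid oxidation genes and PPAR targets lay on the K side in all litters together, but not without the 4 libraries of high marker score. Of 28 tested of 31 listed, 25 had K higher and 3 BHB higher (median 0.37), and 3 were at an unadjusted p under 0.05, against 3.72% of all genes with K higher. None had litters without overlap. Without the 4 libraries the median was -0.05, and with the marker score as a covariate 0.21. Cpt1a, which commits long-chain fatty acids to mitochondrial import, was at 122, 105, 289.9 and 228 CPM in K 1 to 4 and 148, 127, 85.9 and 84.01 CPM in BHB 1 to 4, and 64.6 to 81.4 CPM in normal litters. Every treated litter was above every normal one, and K 3 and K 4 stood apart (0.75 ± 0.31, interval 0.06 to 1.43).

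Angptl4, a secreted lipase inhibitor and PPAR target, was at 10.98, 6.42, 38.3 and 22.96 CPM in K 1 to 4 and 14.1, 9.601, 5.12 and 7.75 CPM in BHB 1 to 4 (1.10 ± 0.49). Cyp4a10, a fatty acid hydroxylase of the proximal tubule, was at 1.41, 1.82, 14.5 and 16.3 CPM in K 1 to 4 and 1.896, 1.11, 2.603 and 2.03 CPM in BHB 1 to 4 (2.13 ± 0.76). K 3 and K 4 were the highest litters of both, and without the 4 libraries Cyp4a10 changed sign to -0.52 while Angptl4 was 0.46. Pdk4, the kinase that shuts off pyruvate dehydrogenase in fasting, was at 49.5, 38.2, 122 and 114 CPM in K 1 to 4 and 140.2, 54.1, 25.1 and 16.6 CPM in BHB 1 to 4 (0.45 ± 0.60). Its highest litter was BHB 1. The mitochondrial β-oxidation enzymes Acadm, Acadl, Acadvl and Hadha had differences of 0.57 ± 0.42, 0.45 ± 0.32, 0.59 ± 0.36 and 0.35 ± 0.20, with the highest levels of all 4 in K 3 and K 4. On the BHB side were Cpt1c, the brain isoform of the carnitine transferase (-0.21 ± 0.13), Plin2, a coat protein of lipid droplets (-0.22 ± 0.21), and the fatty acid carrier Cd36 (-0.23 ± 0.65).

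The central pathways of fuel oxidation also lay on the K side in all litters together, but not without these 4 libraries, which leaves 2 litters an arm. All 24 genes of the pyruvate dehydrogenase complex and the tricarboxylic acid cycle had K higher (median 0.28), 3 at an unadjusted p under 0.05, and 31 of 32 nuclear-encoded oxidative phosphorylation genes tested of 37 listed did so (median 0.19), 2 at that p. Of all genes, 3.72% had K higher at that p. Without the 4 libraries of high marker score the medians were -0.03 and -0.08, and with the marker score as a covariate 0.17 and 0.09. With limma voom and sample quality weights, all litters kept, the first of these medians was -0.04. Pdha1, the catalytic subunit of pyruvate dehydrogenase, was at 139, 135, 245 and 207 CPM in K 1 to 4 and 151, 149, 126 and 118 CPM in BHB 1 to 4 (0.42 ± 0.17). K 3 and K 4 were highest, and K 1 and K 2 lay within the BHB range. Pdhb, its partner subunit, differed by 0.29 ± 0.11, and by 0.26 without the 4 libraries. Citrate synthase Cs (0.20 ± 0.15) and the succinate dehydrogenase subunit Sdha (0.26 ± 0.15) had intervals that included 0.

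Ndufa5, a complex I subunit, was at 40.9, 33.7, 65.98 and 51.3 CPM in K 1 to 4 and 34.6, 39.2, 33.3 and 36.99 CPM in BHB 1 to 4 (0.41 ± 0.17; 0.10 without the 4 libraries). Of 18 glycolysis genes tested of 19 listed, 14 had K higher (median 0.15), 2 at an unadjusted p under 0.05, against 3.72% of all genes with K higher. Gapdh, the dehydrogenase in the middle of the pathway, was at 507, 493, 611 and 529 CPM in K 1 to 4 and 483, 461, 467 and 476 CPM in BHB 1 to 4 with no overlap (0.18 ± 0.08), and Pfkm, the muscle-type phosphofructokinase, differed by 0.21 ± 0.09. Slc2a3, a glucose carrier of high affinity, lay on the BHB side (-0.42 ± 0.30, interval -1.08 to 0.24).

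Among genes of insulin and mTOR signalling, 22 of 26 had K higher (median 0.11), 6 at an unadjusted p under 0.05, all with K higher, against 3.72% of all genes. The median kept its sign in all 26 alternatives, from 0.05 to 0.15. Fnip1, a partner of folliculin that links AMPK and mTORC1 signalling to mitochondrial and lysosomal biogenesis, was at 84.6, 85.8, 77.5 and 83.6 CPM in K 1 to 4 and 63.8, 67.5, 49.05 and 48.9 CPM in BHB 1 to 4. Every K litter was above every BHB litter and above the normal range of 53.3 to 61.01 CPM. The difference was 0.53 ± 0.11 (interval 0.30 to 0.76; edgeR adjusted p = 0.530). Without the 4 libraries of high marker score it was 0.81 (edgeR adjusted p = 0.00663), with the GC gradient removed 0.45, and DESeq2 called it on all litters (adjusted p = 0.00942); over the 26 alternatives the adjusted p ran from 0.00663 to 0.996.

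Flcn, folliculin itself, was at 49.5, 54.8, 56.00 and 58.3 CPM in K 1 to 4 and 50.3, 47.9, 44.4 and 46.5 CPM in BHB 1 to 4, where only K 1 reached into the BHB range (0.21 ± 0.07). Insr, the insulin receptor, was at 137, 152, 192 and 179 CPM in K 1 to 4 and 150.4, 127, 137 and 125 CPM in BHB 1 to 4 (0.29 ± 0.10). Irs2, which carries its signal onward, was at 269, 279, 318 and 353 CPM in K 1 to 4 and 327, 276, 199 and 166 CPM in BHB 1 to 4 (0.33 ± 0.18). BHB 1 was the highest BHB litter for both and lay within the K range. Foxo3, a transcription factor held in the cytoplasm by insulin signalling, was at 225, 238, 223 and 218 CPM in K 1 to 4 and 202, 194, 215 and 169.5 CPM in BHB 1 to 4 with no overlap (0.21 ± 0.08). The mTOR kinase gene itself differed by -0.06 ± 0.11 (interval -0.29 to 0.17), and Akt1 by -0.12 ± 0.07 (interval -0.26 to 0.03).

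Genes of progenitor self-renewal overlapped between the arms. Of 19 self-renewal genes tested of 20 listed, 5 had K higher and 14 BHB higher (median -0.10), with 1 at an unadjusted p under 0.05 against 4.51% of all genes with BHB higher. Pax2, a transcription factor required for kidney formation, was that gene, at 359, 377, 270.3 and 343 CPM in K 1 to 4 and 322, 420.4, 417 and 471 CPM in BHB 1 to 4 (-0.27 ± 0.12). Eya1, the partner of Six2, was at 524, 589, 302 and 356 CPM in K 1 to 4 and 389.9, 490.2, 553 and 529 CPM in BHB 1 to 4 (-0.15 ± 0.19). Sall1, which maintains the pool, was at 648, 687, 442 and 477 CPM in K 1 to 4 and 526, 586, 781 and 682 CPM in BHB 1 to 4 (-0.19 ± 0.15). In both arms the litters of high marker score had the lower values of Six2, Eya1 and Sall1. Gdnf, the signal that draws out the ureteric tree, differed by 0.06 ± 0.23 (interval -0.45 to 0.56).

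Cited1, which marks the least committed cap cells, was at 13.5, 16.96, 9.98 and 9.91 CPM in K 1 to 4 and 11.03, 13.8, 20.6 and 15.6 CPM in BHB 1 to 4 (-0.28 ± 0.20, interval -0.72 to 0.16), and every treated litter was below the normal range of 22.8 to 24.8 CPM. Igdcc3, a surface protein of the immunoglobulin family, was at 13.4, 15.8, 12.3 and 9.91 CPM in K 1 to 4 and 13.96, 17.9, 21.8 and 21.1 CPM in BHB 1 to 4 (-0.54 ± 0.16, unadjusted p = 0.00519; edgeR adjusted p = 0.530). All treated litters were likewise below its normal range of 27.4 to 28.3 CPM, and BHB 1 fell within the K range. Without the 4 libraries the median of the self-renewal list was 0.01, and the differences of Six2 and Cited1 were 0.11 and -0.25.

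Of the early differentiation genes, 1 had litters without overlap, against 1.76% of all genes with K higher. Of 21 tested of 22 listed, 13 had K higher and 8 BHB higher (median 0.08). Wnt4, the signal that carries cap cells into epithelium, was at 121, 126, 73.9 and 155 CPM in K 1 to 4 and 92.5, 141, 122 and 177 CPM in BHB 1 to 4 (-0.16 ± 0.24). Lhx1, a factor of the renal vesicle, was at 25.5, 21.8, 29.5 and 40.4 CPM in K 1 to 4 and 18.5, 35.2, 23.8 and 39.9 CPM in BHB 1 to 4 (0.00 ± 0.25). K 4 and BHB 4 were the highest Wnt4 litters of their arms. Hes1, a target of Notch signalling, was at 61.8, 51.9, 63.5 and 57.5 CPM in K 1 to 4 and 49.5, 47.7, 49.2 and 49.7 CPM in BHB 1 to 4 with no overlap (0.26 ± 0.12, unadjusted p = 0.0464; edgeR adjusted p = 0.600). Normal litters spanned both arms at 44.9 to 70.4 CPM. Lef1, a Wnt effector, lay on the BHB side (-0.27 ± 0.14). Among 12 Wnt targets the median was -0.03, and Sp5 was the only member at an unadjusted p under 0.05, with 6.85, 8.24, 5.04 and 3.76 CPM in K and 6.29, 7.78, 9.598 and 15.00 CPM in BHB (-0.68 ± 0.28). FGF targets (median 0.05, 12 tested) and BMP and TGF-beta targets (median 0.14, 13 tested) had 0 and 1 members at that p. The shares of all genes at that p were 3.72% with K higher and 4.51% with BHB higher.

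Besides progenitor genes, the sorted material of every treated litter held transcripts known from the differentiated loop of Henle (Slc12a1) and from macrophages (Csf1r). Every normal litter held them too, at 99.0 to 391 CPM for Slc12a1 and 1.37 to 4.51 CPM for Csf1r. Markers of other kidney and blood cells differed widely between litters of the same arm. In bulk samples such a level cannot separate fewer cells of a type from less RNA per cell. The K-side medians were 0.79 for loop of Henle and distal tubule (15 genes), 0.44 for proximal tubule (17) and 0.43 for ureteric epithelium (15), while podocyte and endothelial medians were 0.06 and 0.02 (16 genes each). These medians depended on the method. With limma voom and sample quality weights, all litters kept, the distal tubule median was -0.27 and the ureteric median -0.28. Without the 4 libraries of high marker score the proximal tubule median was -1.68 and the endothelial median 1.00. Slc12a1 was at 512, 135, 1696 and 1606 CPM in K 1 to 4 and 1028, 1151, 279 and 90.9 CPM in BHB 1 to 4. The 4 highest litters are those of high marker score, 2 in each arm. Slc12a1 and Cdh5 are themselves members of lists in that score, so such a match is partly built in. Cdh5, the cadherin of endothelium, was at 12.5, 10.2, 34.5 and 26.5 CPM in K 1 to 4 and 57.7, 16.1, 8.62 and 1.27 CPM in BHB 1 to 4. Of the treated litters BHB 1 was the highest for Cdh5 and BHB 4 the lowest. Stromal genes had a median of -0.23 (16 tested of 18 listed), and 0.21 without the 4 libraries.

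**Figure D3:**
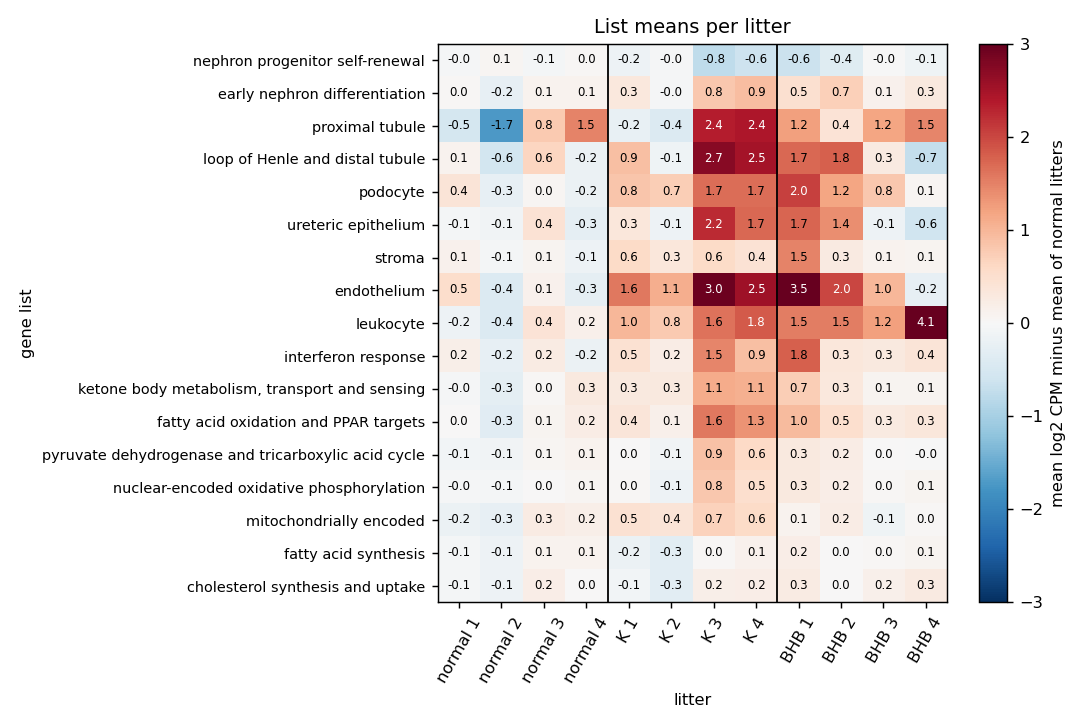
Mean log2 CPM of the tested members of 17 gene lists in each litter, minus the mean of the 4 normal litters; red is above and blue below normal, and the value is printed in each cell. K 3, K 4, BHB 1 and BHB 2 are the highest litters for the distal tubule, ureteric and endothelial lists. K 1, K 2 and BHB 3 are also above normal for the endothelial list, and K 1 for the distal tubule list. For the proximal tubule list BHB 3 and BHB 4 are above BHB 2 and BHB 4 is above BHB 1. BHB 4 stands out for leukocyte genes. Mitochondrially encoded genes are above the normal mean in all 4 K litters and, by less, in BHB 1, BHB 2 and BHB 4.

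Leukocyte genes had the median farthest from 0 of the 36 lists, on the BHB side (-1.35), with 11 of 12 tested (16 listed) BHB higher. This rested on 1 litter. Csf1r, the macrophage growth factor receptor, was at 3.93, 3.83, 14.9 and 15.8 CPM in K 1 to 4 and 18.5, 10.9, 5.69 and 43.6 CPM in BHB 1 to 4. Mrc1, the mannose receptor of macrophages, was at 6.45, 6.04, 9.55 and 10.3 CPM in K 1 to 4 and 4.05, 8.59, 5.94 and 73.97 CPM in BHB 1 to 4. Lyz2, myeloid lysozyme, was at 1.51, 1.05, 3.75 and 3.65 CPM in K 1 to 4 and 6.21, 3.84, 2.03 and 29.5 CPM in BHB 1 to 4. BHB 4 stood apart each time. S100a9, a neutrophil protein, was at 1.01, 0.862, 6.33 and 0.835 CPM in K 1 to 4 and 8.19, 1.52, 1.46 and 34.7 CPM in BHB 1 to 4. BHB 4 was the highest of all 12 litters for each of these 4 genes. Without BHB 4 the list median was -0.04, and the number of genes at an unadjusted p under 0.05 over the whole comparison went from 1456 to 891. Hmox1, which breaks down haem and is strong in macrophages, differed by -1.12 ± 0.59, and by -2.55 without the 4 libraries, when BHB 4 made up 1 of 2 BHB litters; the part of these cells in its value was not tested. Haemoglobin and other erythroid genes had a median of -0.29 (7 tested of 14 listed).

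Growth, chromatin and stress genes gave small differences. Of 22 DNA replication genes, 19 had BHB higher (median -0.16), none at an unadjusted p under 0.05, and the median kept its sign in all 26 alternatives. G2 and M phase genes had a median of 0.09 (16 of 20 with K higher). Of 18 histone deacetylases and sirtuins, 11 had K higher (median 0.03) and none was at an unadjusted p under 0.05. Hdac1 was at 131, 126, 110.3 and 111 CPM in K 1 to 4 and 104, 127, 121 and 109 CPM in BHB 1 to 4 (0.05 ± 0.08, interval -0.12 to 0.23), and Sirt3, the mitochondrial deacylase, differed by 0.16 ± 0.23. Replication-dependent histones, imprinted genes and cytosolic ribosomal proteins had medians of 0.05 (10 tested), -0.12 (17) and 0.04 (86). p53 targets had a median of 0.0026 over 18 genes, of which Bax alone was at an unadjusted p under 0.05. For comparison, 3.72% of all genes had K higher and 4.51% BHB higher at that p.

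Immediate-early genes, which are known to respond to tissue digestion, had K higher for 19 of 22 (median 0.22). The median was 0.63 without the 4 libraries and 0.09 without BHB 4 alone. Mean log2 CPM of the list was 7.33 to 7.74 in K, and 8.00, 7.59, 6.84 and 6.74 in BHB 1 to 4. Fos was at 1647, 1944, 1723 and 1586 CPM in K 1 to 4 and 2048, 1588, 1385 and 925 CPM in BHB 1 to 4 (0.21 ± 0.20). Jun was at 1185, 1232, 1398 and 1347 CPM in K 1 to 4 and 1337, 1047, 719.6 and 572 CPM in BHB 1 to 4 (0.49 ± 0.23). BHB 4 was the lowest litter for both. Hypoxia targets had a median of 0.18 (15 tested), ATF4 targets 0.05 (16), interferon response genes -0.02 (11) and genes of oxidative stress and metallothioneins 0.04 (16). Nupr1, a small stress-induced chromatin protein, was at 1.81, 3.45, 4.08 and 6.05 CPM in K 1 to 4 and 9.74, 2.53, 1.38 and 0.890 CPM in BHB 1 to 4, with BHB 1 highest and every treated litter above the normal range of 0.196 to 0.566 CPM. Malat1, a nuclear long RNA, was at 18037 to 24722 CPM in K and 15386 to 19909 CPM in BHB (0.26 ± 0.13), and 13 nuclear-retained and small nucleolar host RNAs had a median of -0.03. The 5 sex chromosome transcripts had a median of -0.23. Xist, from the inactive X chromosome, was at 1361, 2776, 1257 and 1369.7 CPM in K 1 to 4 and 857, 1145, 1896 and 657 CPM in BHB 1 to 4. Ddx3y, from the Y chromosome, was at 73.7, 25.7, 49.6 and 67.9 CPM in K 1 to 4 and 77.7, 65.2, 36.4 and 85.4 CPM in BHB 1 to 4. Both were found in every litter, and among the K litters K 2 had the highest Xist and the lowest Ddx3y.

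**Figure D4:**
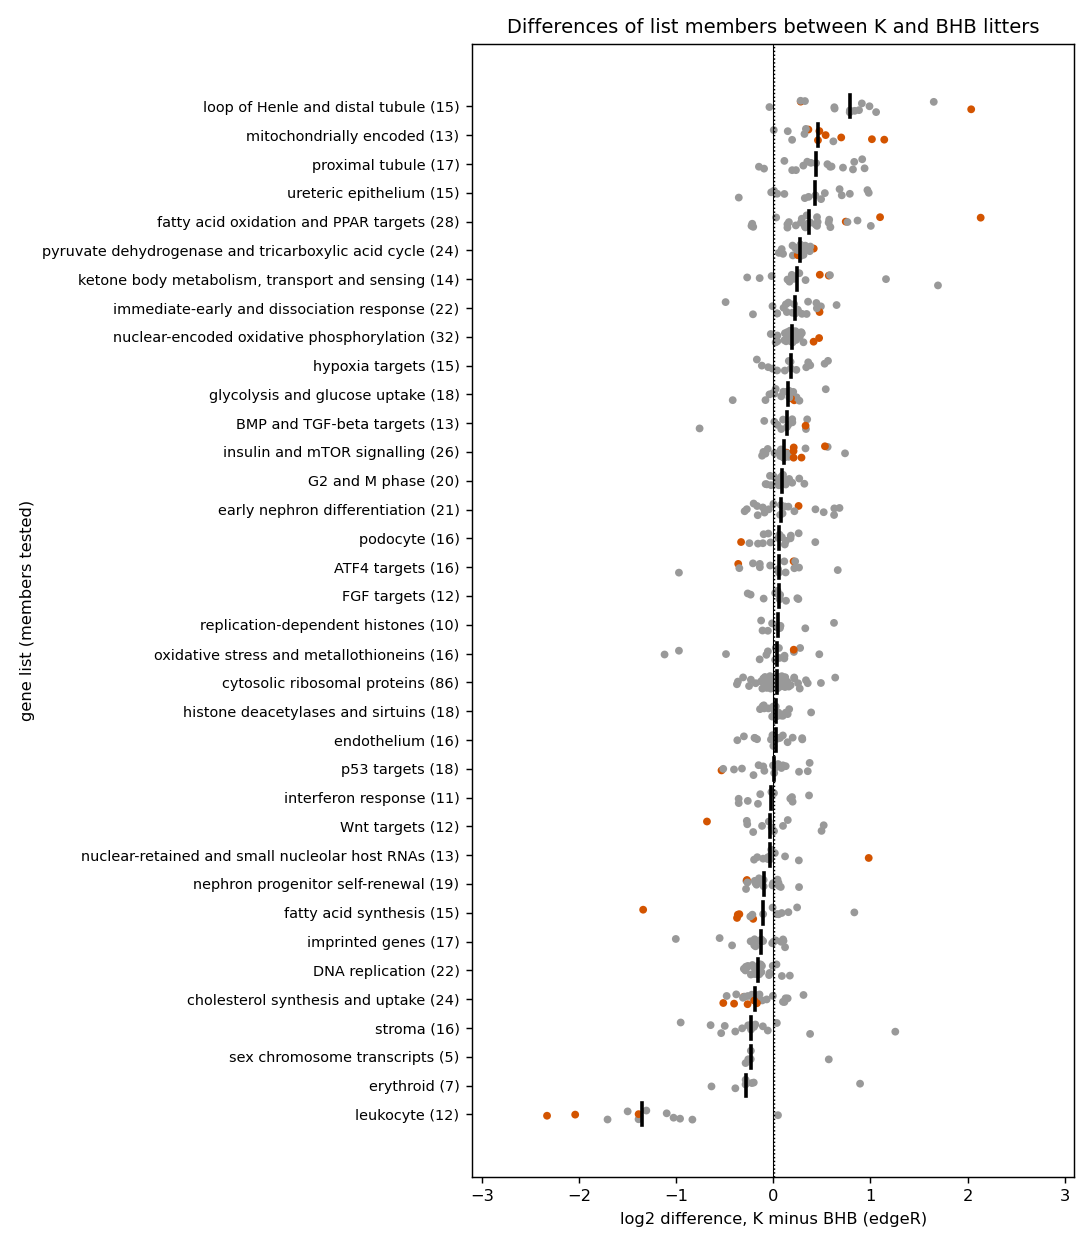
Log2 difference, K minus BHB (edgeR), of every tested member of the 36 gene lists; each point is a gene, orange where its unadjusted p is under 0.05, the black bar is the list median and the dotted line the median of all genes (0.01). Medians run from -1.35 for leukocyte genes to 0.79 for loop of Henle and distal tubule genes, and orange points gather on the right for mitochondrially encoded genes and on the left for lipid synthesis.

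The genes with the smallest p-values included genes outside the lists. On the K side Mafa, a transcription factor best known from insulin-producing cells, was at 2.62, 1.92, 1.82 and 2.71 CPM in K 1 to 4 and 0.948, 0.505, 0.651 and 0.635 CPM in BHB 1 to 4. Its arms did not overlap, at 1.70 ± 0.28 (interval 1.09 to 2.31; edgeR adjusted p = 0.467), and normal litters were at 1.32 to 2.15 CPM, above every BHB litter. Such low levels rest on few reads. Syt14, of the synaptotagmin family, was at 27.9, 27.8, 26.6 and 26.8 CPM in K 1 to 4 and 19.4, 19.6, 20.98 and 18.2 CPM in BHB 1 to 4 (0.48 ± 0.09); here normal litters (25.9 to 32.6 CPM) lay with K. Osbpl3, a lipid transfer protein, was at 69.1, 69.7, 77.7 and 74.6 CPM in K 1 to 4 and 59.3, 59.5, 55.96 and 47.7 CPM in BHB 1 to 4 (0.39 ± 0.08). Eif5a2, a translation factor, was at 12.5, 12.5, 10.6 and 11.9 CPM in K 1 to 4 and 8.71, 9.095, 7.89 and 7.499 CPM in BHB 1 to 4 (0.51 ± 0.12). Lin7c, a scaffold of epithelial junctions (0.31 ± 0.07), Cpne3, a calcium-dependent phospholipid binder (0.34 ± 0.07), Tmtc3, a mannosyltransferase of the endoplasmic reticulum (0.35 ± 0.07), and the Golgi protein Golm2 (0.40 ± 0.09) also had no overlap, and edgeR's adjusted p was 0.530 for each of these last 7 genes.

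On the BHB side Myrf, a membrane-bound transcription factor, was at 42.4, 40.5, 40.6 and 45.8 CPM in K 1 to 4 and 55.2, 52.96, 57.6 and 62.4 CPM in BHB 1 to 4 (-0.43 ± 0.08), with normal litters between the arms at 46.1 to 52.2 CPM; DESeq2 called it (adjusted p = 0.00305). Bax, which opens the mitochondrial membrane in apoptosis, was at 7.86, 9.29, 9.98 and 8.45 CPM in K 1 to 4 and 13.6, 11.4, 13.7 and 12.7 CPM in BHB 1 to 4 (-0.53 ± 0.12). Normal litters (11.6 to 13.6 CPM) lay with BHB. Dnajb5, a co-chaperone, was at 9.87, 9.103, 9.55 and 10.1 CPM in K 1 to 4 and 12.8, 13.3, 15.3 and 14.9 CPM in BHB 1 to 4 (-0.54 ± 0.12). Ogg1, which excises oxidised guanine from DNA, was at 4.23, 5.17, 5.15 and 5.32 CPM in K 1 to 4 and 7.93, 8.29, 7.48 and 8.26 CPM in BHB 1 to 4 (-0.68 ± 0.15). Tcea2, a transcription elongation factor, differed by -0.48 ± 0.11. Among the others with the smallest p on this side were Scd1, given above, the long noncoding RNA Gm29340 and the pseudogenes Gm7803, Gm16238, Gm6579 and Gm11285 (-1.60 to -0.92).

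**Figure D5:**
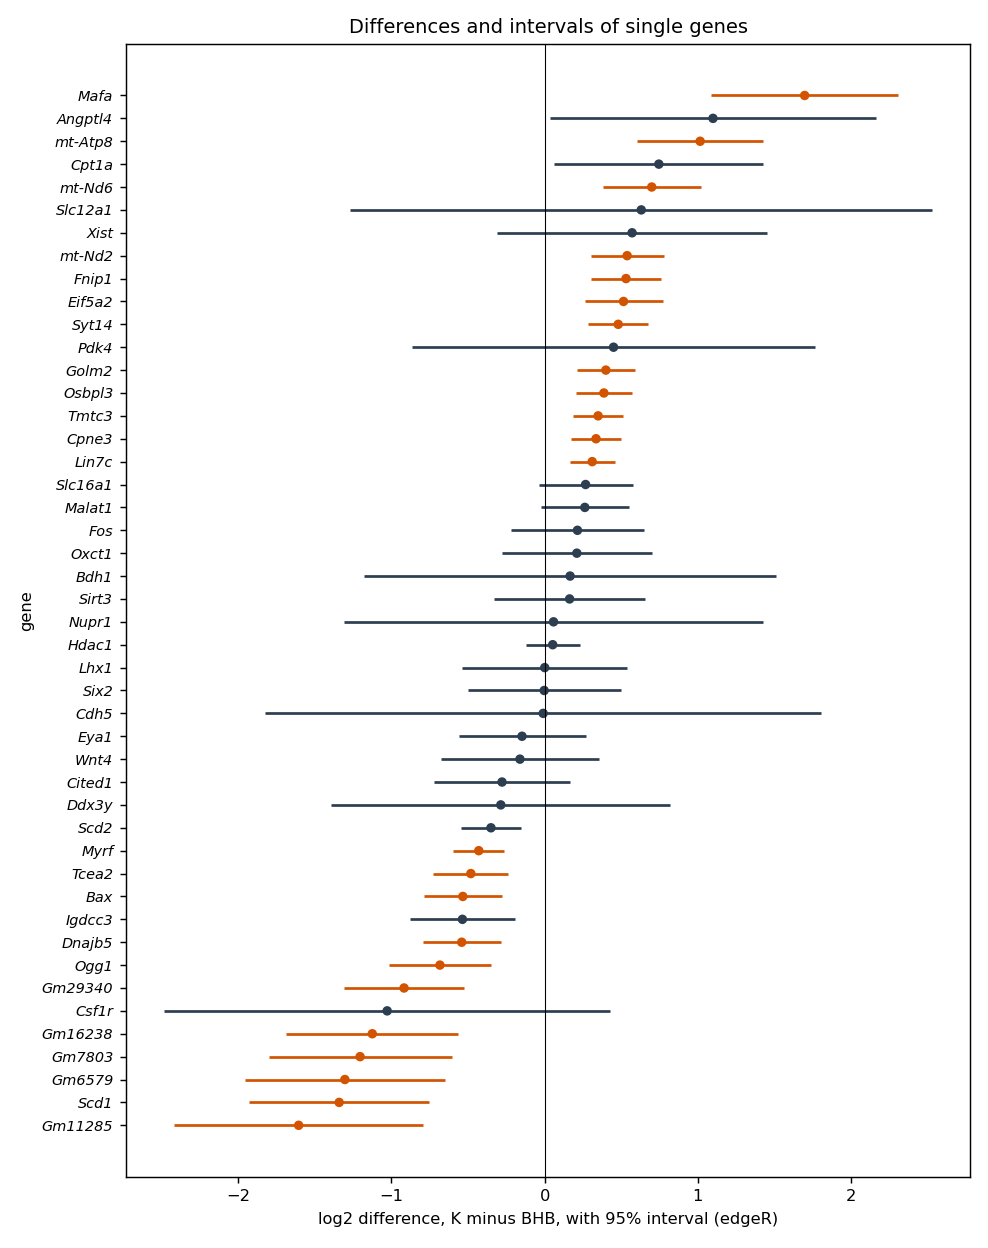
Log2 difference, K minus BHB, with its 95% interval (edgeR, line) for genes with the smallest p in each direction (orange) and for other genes of the progenitor, ketone, lipid, stress and cell marker lists (dark). Orange intervals exclude 0 before adjustment, and of the dark ones those of Six2, Lhx1 and Hdac1 are centred near 0, and those of Slc12a1 and Cdh5 are the widest.

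Restricting the arms to K 1, K 2, BHB 3 and BHB 4, with the 4 normal litters kept in the model, gave 36 calls of 18129 genes tested, 30 with K higher (0.165%) and 6 with BHB higher (0.0331%). The restriction was made with earlier results of these data known, and leaves 2 litters an arm, of which BHB 4 is the one with high leukocyte genes (list median -2.59 in this set). Of the 36, 34 had the same sign over all 8 litters, 21 were at an unadjusted p under 0.05 there, and for 3 the 8 litters did not overlap. Since K 1, K 2, BHB 3 and BHB 4 are part of the 8, such agreement is partly built in and is not separate support. Of all genes, 3.72% with K higher and 4.51% with BHB higher were at that p over all litters. For 1.76% and 2.31% the litters did not overlap. Fnip1 and Scd1 were among the 3 calls without overlap. For the other calls the 8 litters overlapped. Ccn1, a matricellular protein and target of mechanical signalling, was at 236, 216, 467 and 505 CPM in K 1 to 4 and 453, 397, 121 and 137 CPM in BHB 1 to 4, with BHB 1 and BHB 2 above K 1 and K 2 (0.36 ± 0.43 over all litters). Cldn4, a claudin of collecting duct junctions, had 31.5, 29.2, 89.5 and 70.9 CPM in K and 149, 77.2, 14.6 and 11.1 CPM in BHB, with the highest litter in BHB 1.

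DESeq2's 23 calls over all litters did not overlap between arms for any gene. Of these calls, 10 were among the 24 genes picked for the smallest edgeR p, separately in each direction. Some calls outside that set, such as Ro60, Ndrg3 and Ndufc2, had a smaller edgeR p than Tcea2, which is in it. Besides the mitochondrial genes, Fnip1 and Myrf, the DESeq2 calls included Ndufc2, a complex I subunit encoded in the nucleus (0.47 ± 0.11 in edgeR). Also called were Marchf6, a ubiquitin ligase that degrades enzymes of sterol synthesis (0.30 ± 0.07), and Wapl, which releases cohesin from chromosomes (0.20 ± 0.05). The edgeR adjusted p of Ndufc2, Marchf6 and Wapl was 0.530. Fnip1 was called in both the DESeq2 fit of all litters and the edgeR fit without the 4 libraries of high marker score.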

How the data were processed

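Bulk RNA-seq of GFP-positive cells of 12 litters was read as counts per gene from the deposited table of the whole series, which holds whole-number counts of 55414 gene entries. The deposited table also holds normalized signal values, given by the authors for 27370 genes with a total of at least 10 counts, and these equal the counts divided by 1 factor per library. Tools named per the submitters' processing notes, with no role or order, are cutadapt 2.10, TopHat2 2.1.1, HTSeq 2.01 and DESeq2 1.36.0. The alignment build, the strand setting and the handling of reads that match several genes were not given in the sources used here. Rows with blank counts (6250) were left out, which left 49164, of which 757 have a missing or shared symbol. No 2 libraries had a Spearman correlation of their counts above 0.934, and none was counted as a duplicate.

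Counts were tested with edgeR 4.0.16 in R 4.3.3, by the robust quasi-likelihood test with TMM factors, 1 mean for each of the 3 arms over all 12 libraries (9 residual degrees of freedom) and the contrast K minus BHB. Genes passed edgeR's filter on low counts with a minimum of 10 counts and a total of 15, and p-values were adjusted by Benjamini-Hochberg over all 17697 genes tested. Alternatives used DESeq2 1.42.0, limma 3.58.1, other scalings and filters, a replicate block, the marker score as a covariate, and left-out litters; the GC correction and the protein-coding genes alone were chosen after seeing the data. The scripts were tested on simulated data with known changes. Library measures were compared by two-sided exact permutation over the 70 relabellings of 8 libraries. GC content and biotypes came from GENCODE M21 by gene ID, and promoters from RefSeq.

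Named by rule were the 12 genes with the smallest unadjusted p in each direction, since none passed the threshold, the member of each of the 36 gene lists with the smallest p in each direction, and a set of fixed genes such as Six2 and Scd2. Some of these genes are not reported here. Other genes in the text are further list members and calls of an alternative, chosen after their values were seen. The members and lists were chosen with earlier results of these data known. Nothing in the labels says more of the litters than that they are separate, so p-values measure the spread between these litters.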

Additional observations from a re-analysis of the deposited data

Results flagged for a closer look

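In 12 of 304 groups of 4 litters (3.95%), 1 litter lay far from the other 3 by Dixon's criterion, which chance meets in about 1 group in 20. No explanation was weighed for any of them.

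In the K arm, Ogg1 was at 4.23 CPM in K 1 against 5.15 to 5.32 in the others, and Slc16a6, the monocarboxylate transporter, at 11.2 CPM in K 1 against 16.5 to 17.0. In K 3, the amino acid carrier Slc7a5 was at 38.1 CPM against 45.2 to 46.5 and the histone gene H3c3 at 8.37 CPM against 20.0 to 23.6. Xist was at 2776 CPM in K 2 against 1257 to 1369.7. Mean log2 CPM of imprinted genes was 6.22 in K 2 against 6.36 to 6.38, and that of Wnt targets 4.68 in K 4 against 4.51 to 4.53.

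In the BHB arm, BHB 1 held 4 of the 5 cases. The receptor Igf2r was at 492 CPM there against 378 to 395. Mean log2 CPM in BHB 1 was 5.25 for stromal genes against 3.84 to 4.04, 3.23 for interferon response genes against 1.75 to 1.84, and 6.92 for imprinted genes against 6.20 to 6.30. Leukocyte genes had a mean log2 CPM of 4.47 in BHB 4 against 1.63 to 1.95.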

How the results depend on the processing

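The result of no call at an adjusted p of 0.05 held in 23 of the 26 alternatives, 24 planned and 2 chosen after seeing the data, and all 12 that left out 1 litter gave 0 calls. DESeq2 gave 23, the marker score covariate 1 and leaving out the 4 libraries of high marker score 36. At an unadjusted p under 0.05 there were 1456 of 17697 genes. Without a filter there were 2259 of 38549 genes tested, and with protein-coding genes alone 967 of 13824. Of the protein-coding genes, 602 with K higher and 429 with BHB higher were at that p in the main fit. The count was 959 of 17177 with the 8 treated libraries alone and 2290 of 17697 with the marker score covariate. It was 2460 of 18129 without the 4 libraries, and 891 (without BHB 4) to 1959 (without BHB 1) with 1 litter left out. The number of genes tested differed between some of these fits, and the cause was not tested. Replicate numbers did not pair the litters (correlations of same-numbered deviations -0.441 to -0.216, and 0 of 4 K litters correlated best with its own number), and the fit with the replicate block had 0 calls and 1210 genes at an unadjusted p under 0.05. Of the 36 list medians, 16 changed sign with voom quality weights and 13 without the 4 libraries. Of 109 single genes followed, 86 kept their sign in every alternative and 23 did not, and no value with a changed sign had an adjusted p under 0.05. Log2 differences follow. With DESeq2 size factors changed-sign values were Six2 0.00301. With upper-quartile scaling changed-sign values were Lhx1 -0.0423. With library totals only changed-sign values were Cd68 -0.00979, Lhx1 -0.0628, Hdac1 -0.00496. With no filter on low counts changed-sign values were Ndufa1 0.00127, Six2 0.0241, Cdh5 0.015. With only the 8 K and BHB libraries changed-sign values were Lhx1 -0.00505. With the replicate block changed-sign values were Lhx1 -0.0023, Cdh5 0.687, Bdh1 -0.0465. With DESeq2 changed-sign values were Six2 0.00303, Cdh5 0.00135. With limma voom changed-sign values were Cdh5 0.671, Bdh1 -0.0841. With voom quality weights changed-sign values were Slc22a8 -0.133, Birc5 0.105, Six2 0.255, Eya1 0.0166, Lhx1 -0.195, Slc12a1 -0.337, Cdh5 0.153, Bdh1 -0.904, Oxct1 -0.183, Sirt3 -0.14. With the marker covariate changed-sign values were Six2 0.0438, Lhx1 -0.0471, Cdh5 0.0611, Bdh1 -0.293. With the 4 high-score libraries left out changed-sign values were Slc22a8 -0.849, Penk 0.175, Plvap 0.0782, Cd68 -0.113, Cyp4a10 -0.522, Klf2 0.0711, Birc5 0.0344, Six2 0.107, Eya1 0.0507, Lhx1 -0.41, Cdh5 1.13, Bdh1 -0.364, Oxct1 -0.119. With the GC correction changed-sign values were Six2 0.0683, Cdh5 0.00665. With protein-coding genes only changed-sign values were Lhx1 -0.0274. With 1 litter left out, ranges that crossed 0 were Aqp1 -0.657 to 0.326, Egf -0.28 to 0.216, Ndufa1 -0.262 to 0.118, Cdh5 -0.394 to 1.26, Meox1 -0.00205 to 0.411, Birc5 -0.255 to 0.119, Six2 -0.188 to 0.195, Eya1 -0.315 to 0.000308, Wnt4 -0.313 to 0.0128, Bdh1 -0.231 to 0.556, Oxct1 -0.0203 to 0.371, Sirt3 -0.0611 to 0.305, Cd68 -0.0576 to 0.173, Lhx1 -0.191 to 0.182, Nupr1 -0.246 to 1.24, Aqp2 -0.998 to 0.411, Plvap -0.648 to 0.324, Klf2 -0.716 to 0.0691. The depth of these libraries limits genes of few CPM such as Mafa, and 4280 genes had an interval that reached beyond a log2 difference of 1 in size.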
